A study of Mus musculus with 9 samples.

Results

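Glutathione S-transferases are described here across 3 layers of the newborn mouse bladder, the urothelium (the lining epithelium), the detrusor (the smooth muscle coat) and the stroma between them. The set is 10 genes chosen by symbol: Gsta3 and Gsta4 (alpha class), Gstm1, Gstm2, Gstm4 and Gstm5 (mu class), Gsto1 (omega class), Gstt1 (theta class), and Mgst1 and Mgst3 (microsomal). In the platform annotation these symbols own 17 of the 45101 probe sets on the Affymetrix MOE430 array. Of the 17, 13 lay at or above their array's median signal on all 9 arrays, and they cover 9 of the 10 genes. The other 4 (both of Gsta3 and the second ones of Mgst1 and Mgst3) were dimmer and fell below the filter, so Gsta3 was not tested. The array names 18193 genes in all, of which 13064 were tested.

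The tissue came from FVB/N mice of unknown sex carrying the SMGA/EGFP transgene, which the samples of all 3 layers share. Layers were cut from 8 micron frozen sections by laser capture, and RNA from each unpooled sample went through 2 rounds of amplification before hybridisation to 1 array. There were 3 arrays per layer: urothelium with 1 array from postnatal day 1 and 2 from day 2, detrusor with 2 from day 1 and 1 from day 2, and stroma with 1 from day 1 and 2 from day 2. The labels do not tie samples to animals, so p-values measure only the spread between these arrays, which may be technical.

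Glutathione S-transferases join the tripeptide glutathione to reactive, often electrophilic compounds, which makes them more water soluble and ready for export by ABC transporters. The alpha, mu, omega and theta classes are soluble enzymes of the cytosol, whereas the microsomal enzymes sit in membranes and belong to a protein family of separate origin. The bladder lining is exposed to foreign compounds and their breakdown products carried in urine. Many of the genes are known targets of the transcription factor Nrf2, which acts through antioxidant response elements, and some respond to the aryl hydrocarbon receptor.

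Some arrays carried transcripts of a neighbouring layer. The summed signal of 10 urothelial markers (4 uroplakins, 4 keratins, Cdh1 and Epcam) was 216155 to 330926 intensity units in urothelium, 2323 to 3610 in detrusor, and 53738, 15059 and 180855 in stroma 1, 2 and 3. The sum of 8 smooth muscle markers was 57596, 38631 and 411248 in urothelium 1, 2 and 3, against 378072 to 577533 in detrusor and 91445 to 227254 in stroma. Stroma 3 therefore held much urothelial transcript, and urothelium 3 held smooth muscle transcript with a sum inside the detrusor range. By gene, Actg2, Acta2 and Mylk of urothelium 3 lay inside the detrusor range. Myh11 (log2 15.66 against 15.81 to 16.57), Des (12.02 against 13.47 to 14.52), Cnn1, Smtn and Tagln lay below it. The 8 fibroblast markers summed to 122556 to 254197 in urothelium, 287824 to 353740 in detrusor and 381719 to 599370 in stroma, so stroma was highest. The 4 skeletal muscle markers summed to 431, 89 and 31538 in urothelium 1, 2 and 3, against 101478 to 105987 in detrusor and 893 to 9277 in stroma. Urothelium 3 thus also held skeletal muscle transcript, below the detrusor level. Markers of macrophages and leukocytes (5 genes) summed to 3645 to 6769 in urothelium, 4990 to 9122 in detrusor and 7644 to 49452 in stroma, and those of endothelium (5 genes) to 1849 to 6304 in urothelium, 3985 to 10241 in detrusor and 8289 to 17662 in stroma. The 3 mesothelial markers, Msln, Upk3b and Wt1, summed to 20159 to 42050 in urothelium, 191 to 1215 in detrusor and 2667 to 7321 in stroma. The urothelium sums rest mostly on Upk3b, at log2 14.07, 15.31 and 14.74, against 10.2, 10.61 and 10.23 for Msln. Wt1 was at 10.9, 6.32 and 9.92 in urothelium, 7.56, 6.29 and 5.52 in detrusor and 7.87, 12.53 and 10.51 in stroma. The 3 markers thus did not place the layers alike. The median signal of an array ranged from 133.3 to 388.5. For the control gene Actb, the 3' probe set over the 5' one, a ratio that grows as RNA is degraded, gave 5.32 to 8.49 in urothelium, 2.27 to 7.49 in detrusor and 5 to 24.7 in stroma. The same ratio for Gapdh was 19.1 to 23.4 in urothelium, 15.9 to 34.7 in detrusor and 15.3 to 31.8 in stroma, so the 2 controls did not place the layers alike. Both ratios were taken after the 2 rounds of amplification, and the part of degradation in them was not tested.

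Of the 9 tested genes, 6 were higher and 2 lower in urothelium than in detrusor. By limma, 8 of the 9 genes tested differed at an adjusted p under 0.05, against 16.4% of all 13064 genes tested. Gsta4, Gstm1, Gstm4, Gsto1, Mgst1 and Mgst3 were higher in urothelium, where 8.37% of all genes were called, and Gstm5 and Gstt1 were lower, where 8.05% were. Gstm2 was the gene not called. With the 13 other tested relatives described further on, 9 of 22 were higher and 2 lower. Those 9 include Gsta2, which passed the filter only through the other layers. Of the 13 relatives alone, 3 were higher and 0 lower. All 22 genes were chosen with earlier results of these data known. The same 8 genes had urothelium and detrusor arrays that did not overlap, against 39.3% of all genes (19.3% higher and 20% lower in urothelium). The count was also 8 without stroma 3 and urothelium 3. Urothelial markers and the mesothelial sum, mostly Upk3b, were likewise higher in urothelium. Skeletal muscle markers were lower, least so in urothelium 3. The smooth muscle sum was lower except in urothelium 3, where the single markers were split as given above. The part of all these markers in the differences was not tested. In bulk tissue of this kind, fewer cells of a type and less RNA per cell cannot be told apart.

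Gsta4, an alpha class enzyme that conjugates the lipid peroxidation product 4-hydroxynonenal, had signals of 40311, 48445 and 39946 intensity units in urothelium and 2521, 854 and 3430 in detrusor. The lowest urothelium array lay far above the highest detrusor array. The difference was 21.4-fold (log2 4.42 ± 0.48, SE, n = 3 per layer, adjusted p = 0.000522). Gstm1, a mu class enzyme abundant in mouse liver, had 23914, 23650 and 15803 units in urothelium against 1337, 1058 and 1560 in detrusor on the probe set with its highest signal. The lowest of these urothelium arrays was urothelium 3, which also held the smooth muscle transcripts. Urothelium 3 was likewise lowest for Gsta4 (39946 units against 40311 in urothelium 1), Gstm4, Mgst3 and Gsto1. For Mgst1 it was the highest, at 37256 units. The part of the smooth muscle transcripts in these levels was not tested. The Gstm1 difference was 15.5-fold (log2 3.95 ± 0.40, adjusted p = 0.000418). Gstm4, another mu class enzyme, had 7872, 15972 and 6338 units in urothelium against 980, 605 and 1009 in detrusor, with no overlap. Its difference was 10.5-fold (log2 3.40 ± 0.45, adjusted p = 0.00128).

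Mgst1, a membrane enzyme with both transferase and peroxidase activity, had 31723, 35651 and 37256 units in urothelium against 8717, 10847 and 7861 in detrusor. Both layers were tight, and the difference was 3.83-fold (log2 1.94 ± 0.23, adjusted p = 0.00073). Mgst3, a related membrane enzyme, had 11110, 10206 and 9028 units in urothelium against 2087, 2045 and 1586 in detrusor, a difference of 5.24-fold (log2 2.39 ± 0.36, adjusted p = 0.00197). Gsto1, an omega class enzyme with a cysteine in its active site that reduces dehydroascorbate, had 13127, 15022 and 10726 units in urothelium against 4291, 4768 and 3343 in detrusor. Its layers did not overlap either, but the step was smaller, at 3.12-fold (log2 1.64 ± 0.40, adjusted p = 0.0181). The Gsto1 call was lost when detrusor 3 was left out (adjusted p = 0.0777), and likewise for urothelium 1 (1.62, adjusted p = 0.0568) or urothelium 2 (1.53, adjusted p = 0.068).

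**Figure D1:**
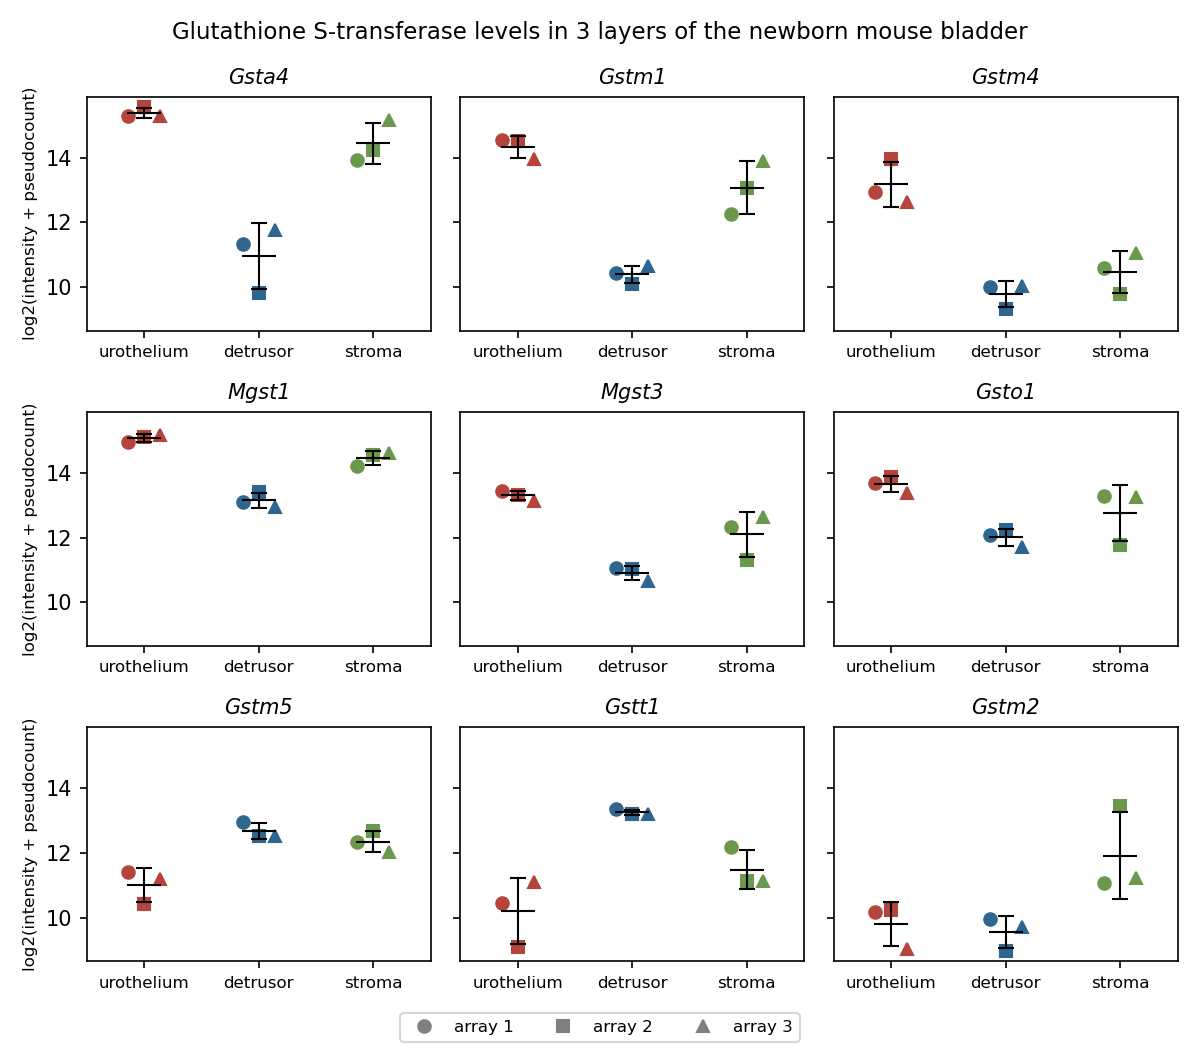
Levels of the 9 tested genes on a log2(intensity + 39.34) scale, 1 point per array, with black bars for the mean and SD of the 3 arrays of each layer. Gsta4, Gstm1, Gstm4, Mgst1, Mgst3 and Gsto1 are highest in urothelium, Gstm5 and Gstt1 have their highest means in detrusor, and Gstm2 is highest in stroma 2, at 11215 intensity units.

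Gstt1 and Gstm5 ran the other way. Gstt1, a theta class enzyme that acts on small halogenated compounds, had 1369, 506 and 2137 units in urothelium against 10362, 9456 and 9367 in detrusor. The 3 detrusor arrays were close together, and urothelium 3 was the highest of its layer. Gstt1 was 8.22-fold lower in urothelium (log2 -3.04 ± 0.49, adjusted p = 0.00264), and over the 22 alternatives the difference ran between -3.48 (without urothelium 3) and -2.48 (without urothelium 2), called in each. Gstm5, a mu class enzyme, had 2651, 1316 and 2306 units in urothelium against 7959, 5861 and 5888 in detrusor. It was 3.20-fold lower in urothelium (log2 -1.68 ± 0.34, adjusted p = 0.00769). For Gstm5 urothelium 1, not urothelium 3, was the highest of its layer.

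Stroma stood between the other layers in mean for 8 of the 9 genes. Between detrusor and stroma 3 of the 9 were called, against 5.84% of all genes, and all of them were lower in detrusor, where 2.72% of all genes were called. Gsta4 had 2521, 854 and 3430 units in detrusor against 15506, 19469 and 36606 in stroma, and was 11.2-fold lower in detrusor (log2 -3.48 ± 0.48, adjusted p = 0.00462). Gstm1 had 1337, 1058 and 1560 units in detrusor against 4871, 8455 and 15374 in stroma, and was 6.43-fold lower (log2 -2.69 ± 0.40, adjusted p = 0.0073). Mgst1 had 8717, 10847 and 7861 units in detrusor against 19180, 24158 and 24912 in stroma, and was 2.49-fold lower (log2 -1.32 ± 0.23, adjusted p = 0.0122). Gsta4, Gstm1, Gstm2, Mgst1 and Mgst3 had all detrusor arrays below all stroma arrays, and Gstt1 had them above, against 27.1% of all genes in either direction (11.8% higher and 15.3% lower in detrusor). By the sums given above, urothelial, mesothelial and fibroblast markers were also lower in detrusor than in stroma, and smooth and skeletal muscle markers were higher. Their part in these differences was not tested. Without stroma 3 and urothelium 3 the differences were -3.13 ± 0.53 for Gsta4 (adjusted p = 0.016), -2.27 ± 0.37 for Gstm1 (adjusted p = 0.013) and -1.25 ± 0.27 for Mgst1 (adjusted p = 0.0451). The Mgst1 call was lost without detrusor 3 (-1.21, adjusted p = 0.0664) and with each array centred on its median (-0.90, adjusted p = 0.173). That centring moved the median difference of all genes between detrusor and stroma to 0.25 from -0.16 as deposited.

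The other genes were not called between detrusor and stroma. Gstt1 had 10362, 9456 and 9367 units in detrusor against 4586, 2179 and 2212 in stroma, with no overlap, at log2 1.78 ± 0.49 (adjusted p = 0.0615). It passed under 9 of 22 alternatives, among them quantile normalization (adjusted p = 0.0466), median centring (2.19, adjusted p = 0.023), and the fits that left out urothelium 2 (adjusted p = 0.0225), urothelium 3 (adjusted p = 0.0433) or stroma 1 (2.13, adjusted p = 0.0464). Mgst3 had 2087, 2045 and 1586 units in detrusor against 5142, 2508 and 6333 in stroma (log2 -1.18 ± 0.36, adjusted p = 0.0822). Gsto1 had 4291, 4768 and 3343 units in detrusor against 9890, 3449 and 9850 in stroma (log2 -0.76 ± 0.40, adjusted p = 0.288). Stroma 2 was the low array for both Mgst3 and Gsto1, and without it both were called (Mgst3 -1.57, adjusted p = 0.0158, and Gsto1 -1.26, adjusted p = 0.0322). Gstm4 (log2 -0.68, 95% interval -1.68 to 0.31) and Gstm5 (0.33, -0.42 to 1.09) had intervals that included 0.

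Between urothelium and stroma, 1 of the 9 genes was called, against 0.23% of all genes. Gstm4 had 7872, 15972 and 6338 units in urothelium against 1503, 837 and 2074 in stroma, and was 6.56-fold higher in urothelium (log2 2.71 ± 0.45, adjusted p = 0.0443), where 0.0612% of all genes were called. None of the 9 was called lower, against 0.168% of all genes. By limma, 7 of the 9 had an unadjusted p under 0.05, against 2481 of the 13064 genes tested. The Gstm4 call was lost under 14 of 22 alternatives. Over all 22 the difference ran between 2.32 and 3.28 and its adjusted p between 0.0125 and 0.185. The call was lost on leaving out any detrusor array (2.71 each time, adjusted p 0.09, 0.0657 and 0.0937), urothelium 1 (2.83, adjusted p = 0.0985) or urothelium 2 (2.32, adjusted p = 0.185), and stroma 1 (2.77, adjusted p = 0.131) or stroma 2 (2.37, adjusted p = 0.0569). With both stroma 3 and urothelium 3 left out it was 3.28 ± 0.52 (adjusted p = 0.0185).

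All 9 genes had urothelium and stroma arrays that did not overlap, against 23.1% of all genes in either direction (9.77% higher and 13.3% lower in urothelium). Of the 13 other tested relatives, Gstt3 was higher without overlap, and Gstm7 and Alox5ap were lower without overlap. The rest overlapped. All these genes were chosen with earlier results of these data known. Among the 9 genes some margins were thin. Gstt1 had 2137 units in urothelium 3 against 2179 in stroma 2, and Gstm1 had 15803 in urothelium 3 against 15374 in stroma 3. Gsta4 had 39946 in urothelium 3 against 36606 in stroma 3, and Gsto1 had 10726 in urothelium 3 against 9890 in stroma 1. The further Gstm1 probe sets 1425627_x_at and 1425626_at did overlap, whereas 1448330_at did not. Gsta4 (log2 0.94 ± 0.48), Gstm1 (1.27 ± 0.40), Gsto1 (0.88 ± 0.40), Mgst1 (0.62 ± 0.23) and Mgst3 (1.21 ± 0.36) were, like Gstm4, above stroma on all urothelium arrays, and Gstm2 (-2.10 ± 0.63), Gstm5 (-1.34 ± 0.34) and Gstt1 (-1.26 ± 0.49) below it, with adjusted p from 0.0775 for Gstm5 to 0.318 for Gsta4. Gstm1 passed when stroma 3 alone was left out (1.69, adjusted p = 0.0347) and when urothelium 3 was dropped as well (1.88, adjusted p = 0.0408).

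**Figure D2:**
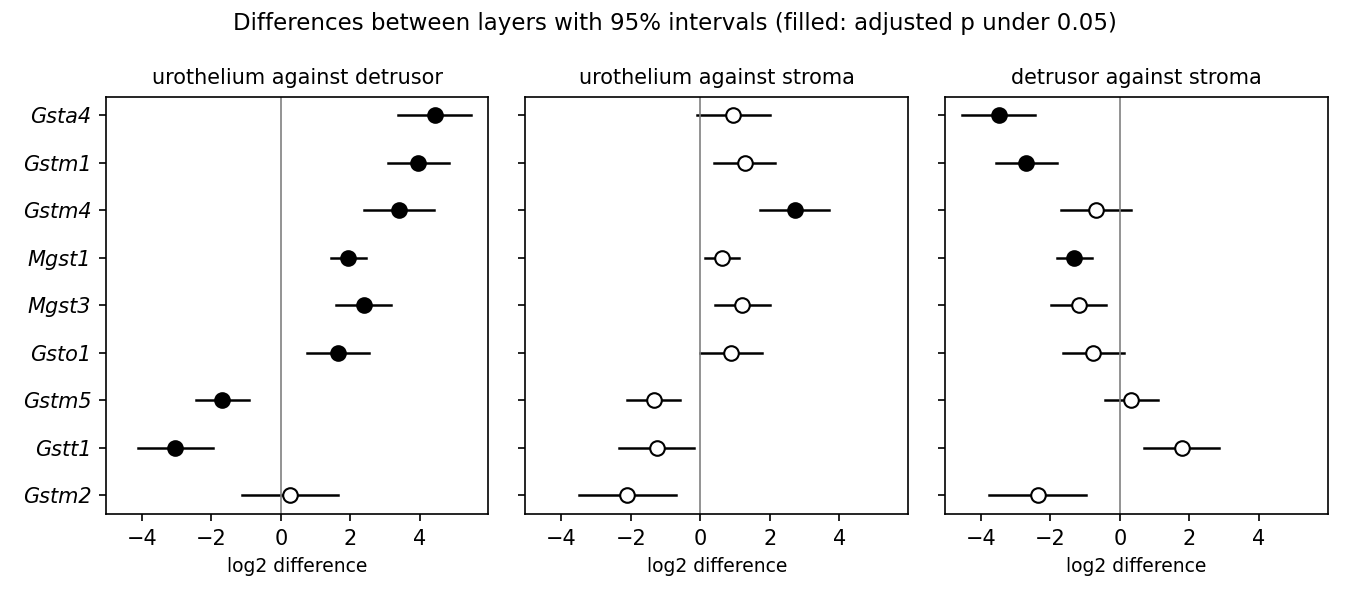
Log2 differences of the 9 genes in the 3 comparisons, first-named layer minus second, with 95% intervals, filled where the limma adjusted p was under 0.05. In urothelium against detrusor 8 points are filled, with 6 to the right of 0 and 2 to the left.

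Among the stroma arrays, Gstm4, Gsto1 and Mgst3 were lowest where the urothelial markers were lowest, and Gsta4, Gstm1 and Mgst1 were not. The median log2 level of the 10 urothelial markers was 14.09, 15.13 and 13.81 in urothelium, 7.03 to 8.395 in detrusor, and 12.44, 9.56 and 13.47 in stroma. Stroma 2 was thus the stroma array with the least urothelial transcript, although Epcam stood at 13.14 there, against 12.41 in stroma 1 and 14.78 in stroma 3. For Gstm4, Gsto1 and Mgst3, stroma 2 was the lowest of the 3 stroma arrays, at 837, 3449 and 2508 units. The Gstm4 and Gsto1 values of stroma 2 lay within the range of the detrusor arrays. For Gsta4, Gstm1 and Mgst1, stroma 2 was above stroma 1, at 19469, 8455 and 24158 units, and above every detrusor array. These are the 3 genes called between detrusor and stroma. How much of their stroma signal came from urothelial transcript was not tested.

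**Figure D3:**
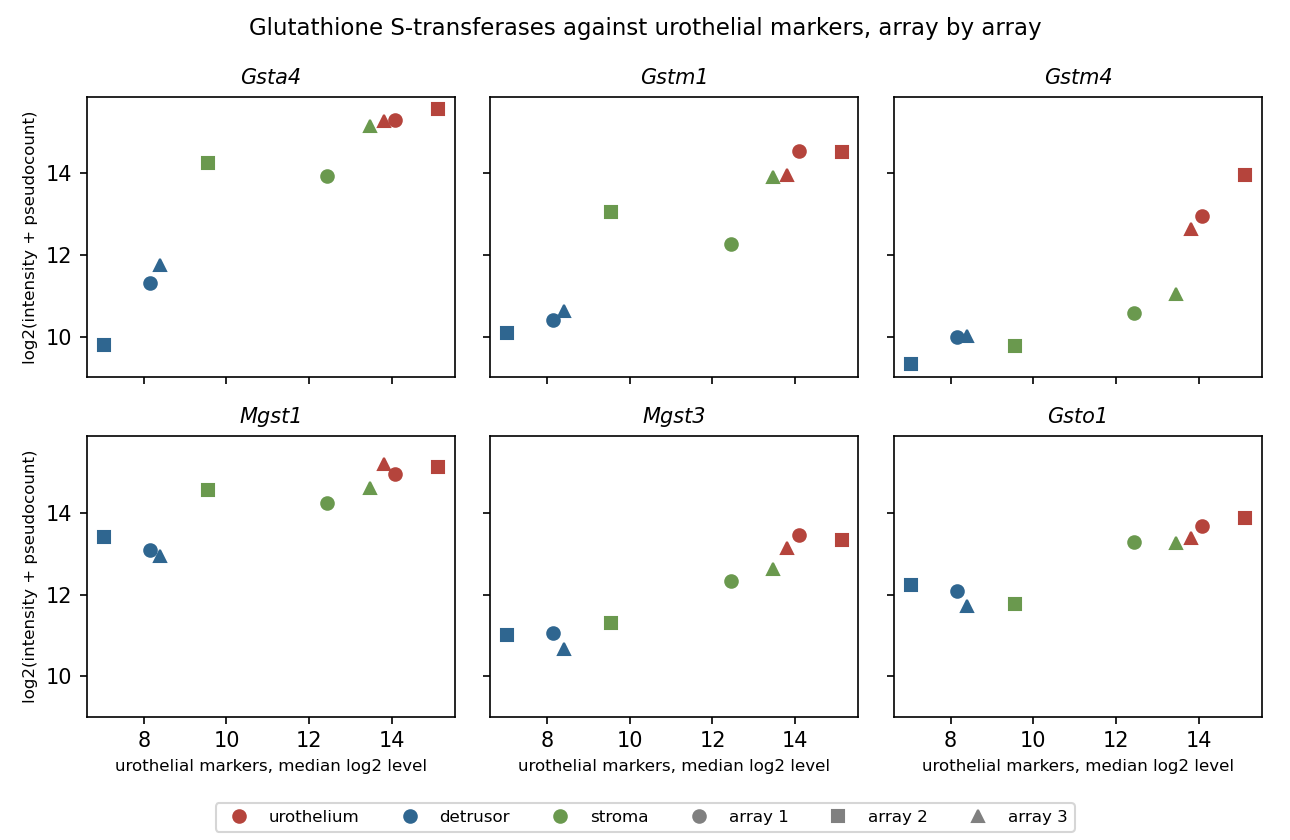
Log2(intensity + 39.34) levels of the 6 genes high in urothelium against the median log2 level of 10 urothelial markers, 1 point per array. Stroma 2, the green square near 9.56 on the horizontal axis, lies near the detrusor arrays for Gstm4, Gsto1 and Mgst3 and well above them for Gsta4, Gstm1 and Mgst1.

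Gstm2, a mu class enzyme, had its highest mean in stroma. It had 1106, 1175 and 482 units in urothelium, 952, 465 and 804 in detrusor and 2100, 11215 and 2340 in stroma. All 3 stroma arrays were above both other layers, and stroma 2 was far above the rest. The difference from stroma was log2 -2.10 ± 0.63 for urothelium (adjusted p = 0.11) and -2.36 ± 0.63 for detrusor (adjusted p = 0.0538). Stroma 2 carried much of the size of both differences. Without it they were -1.33 ± 0.49 for urothelium (adjusted p = 0.179) and -1.59 ± 0.49 for detrusor (adjusted p = 0.0856). The detrusor difference passed without stroma 1 (-2.79, adjusted p = 0.0462) and with a stricter filter on dim probe sets (adjusted p = 0.0436), and its adjusted p ran up to 0.169 over the 22 alternatives. Urothelium and detrusor were not told apart (0.26, 95% interval -1.13 to 1.65).

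The mu class genes lie side by side on chromosome 3, with 0 other protein-coding genes among the 7, in the order Gstm5, Gstm7, Gstm6, Gstm3, Gstm2, Gstm1 and Gstm4 of assembly GRCm38.p6. Gstm5 at one end was lower in urothelium than in detrusor, whereas Gstm1 and Gstm4 at the other end were higher. Stroma 2 was also high for neighbours of Gstm2 on some probe sets. Gstm6 had 3637 units there, against 20.2 and 175 in the other stroma arrays, 20.9 to 234 in urothelium and 12.8 to 50.5 in detrusor. One Gstm7 probe set had 1929 units in stroma 2 and 41.6 to 255 elsewhere, whereas the other had 333 in stroma 2, inside its range over the rest. Mu class genes are alike in sequence, so signal shared between them by cross-hybridisation was not tested.

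**Figure D4:**
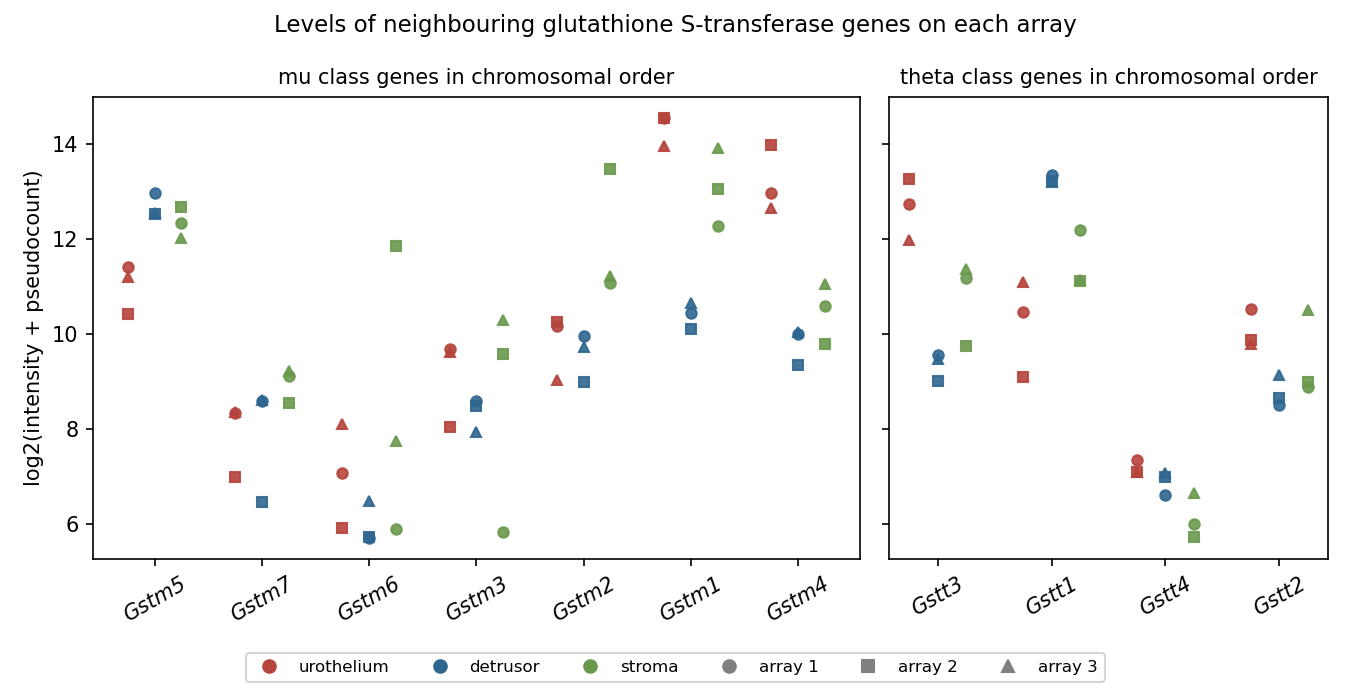
Log2(intensity + 39.34) levels of the 7 mu class and 4 theta class genes in chromosomal order, 1 point per array, for the probe set with the highest mean of each gene. Heights are to be compared between arrays of 1 gene and not between genes. Gstm5 and Gstt1 have urothelium below detrusor, and their relatives Gstm1, Gstm4 and Gstt3 have it above.

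To set the sequence beside these opposite levels, promoters are shown for Gstm1 and Gstm4 (higher in urothelium than in detrusor), for Gstm5 (lower) and for Mgst1 (higher). Each is 250 bases before to 50 after a RefSeq gene start in GRCm38.p6, on the gene's strand, at chr3:108017924-108018223 (minus), chr3:108044810-108045109 (minus), chr3:107895604-107895903 (plus) and chr6:138140277-138140576 (plus). Capitals mark matches on either strand to the antioxidant response element TGACNNNGC and to the aryl hydrocarbon response element core GCGTG.
Gstm1: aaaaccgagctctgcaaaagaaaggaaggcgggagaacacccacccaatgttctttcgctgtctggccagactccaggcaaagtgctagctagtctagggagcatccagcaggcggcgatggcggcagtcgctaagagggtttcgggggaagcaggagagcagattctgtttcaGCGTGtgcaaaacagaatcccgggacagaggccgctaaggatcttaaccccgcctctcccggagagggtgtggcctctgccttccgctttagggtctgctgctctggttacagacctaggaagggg
Gstm4: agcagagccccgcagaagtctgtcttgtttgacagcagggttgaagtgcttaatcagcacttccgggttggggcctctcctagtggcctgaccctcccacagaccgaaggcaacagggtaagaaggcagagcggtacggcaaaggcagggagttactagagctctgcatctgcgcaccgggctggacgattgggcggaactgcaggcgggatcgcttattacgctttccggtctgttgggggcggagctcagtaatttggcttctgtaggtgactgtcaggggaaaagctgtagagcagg
Gstm5: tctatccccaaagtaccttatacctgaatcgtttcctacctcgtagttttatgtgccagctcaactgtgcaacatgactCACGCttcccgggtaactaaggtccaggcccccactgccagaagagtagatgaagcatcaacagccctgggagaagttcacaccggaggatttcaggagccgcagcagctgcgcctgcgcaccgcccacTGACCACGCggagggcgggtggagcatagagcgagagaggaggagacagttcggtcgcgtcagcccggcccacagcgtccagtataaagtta
Mgst1: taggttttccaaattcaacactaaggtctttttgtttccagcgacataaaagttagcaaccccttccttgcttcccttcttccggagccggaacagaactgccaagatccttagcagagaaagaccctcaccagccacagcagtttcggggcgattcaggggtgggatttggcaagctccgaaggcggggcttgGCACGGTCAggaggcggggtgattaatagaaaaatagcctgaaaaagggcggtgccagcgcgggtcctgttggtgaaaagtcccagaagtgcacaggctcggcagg

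The RefSeq table held promoters for 9 of the 10 genes, in 12 windows, with Gsta4 not among them. TGACNNNGC was found for 3 of the 9 genes (Gsta3, Gstm5 and Mgst1), in 3 of 12 windows against 12.4% of all 32851 windows. GCGTG was found for 3 genes (Gstm1, Gstm5 and Mgst3), in 4 of 12 windows against 32.4% of all. In Gstm5 the 2 motifs overlap, 42 bases before the start on the plus strand for the first. In Mgst1 the match runs on the minus strand, from 56 bases before the start. Gstm4 had a match to neither in either of its windows, which overlap almost entirely. Both Gstm1 windows also overlap, and the same GCGTG site is counted in each. The antioxidant letters thus stood before Gstm5, which was lower in urothelium than in detrusor, and before Mgst1, which was higher. These matches describe the letters and show no binding.

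The theta class genes on chromosome 10 also gave a pair of opposite neighbours. Gstt3, next to Gstt1 in GRCm38.p6, had 6789, 9774 and 3998 units in urothelium against 709, 474 and 671 in detrusor (log2 3.32 ± 0.49, adjusted p = 0.00185). Its stroma values were 2264, 812 and 2600, with stroma 2 lowest, as for Gstm4. Gstt2 of the same cluster had 1422, 893 and 839 units in urothelium, 322, 361 and 524 in detrusor and 429, 464 and 1415 in stroma, and was not called in any comparison. Gstt4 was at or under 123 units on every array.

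The levels above are those of probe sets 1416368_at (Gsta4), 1416416_x_at (Gstm1), 1416411_at (Gstm2), 1424835_at (Gstm4), 1416842_at (Gstm5), 1456036_x_at (Gsto1), 1418186_at (Gstt1), 1415897_a_at (Mgst1) and 1448300_at (Mgst3). Gstm1 has 3 more (1448330_at, 1425627_x_at and 1425626_at), and 2 of the 4 carry the suffix _x_at, which the manufacturer gives to sets with probes that can match other transcripts. No probe set of the 10 genes is annotated to more than 1 gene. Between urothelium and detrusor the Gstm1 sets gave log2 differences of 3.95 and 3.84 for the _x_at sets and 4.20 and 2.44 for the other two. Each was called when every probe set was tested on its own, with adjusted p from 0.000387 to 0.0126. The last of these, 1425626_at, had 2660, 938 and 2173 units in urothelium against 380, 271 and 241 in detrusor, and in urothelium against stroma it gave 0.05, where the others gave 1.23 to 1.27. Gsto1 has 2 sets, an _x_at set used above (1.64 ± 0.40, adjusted p = 0.0242 over all probe sets) and 1416531_at, without that suffix, with 8932, 16465 and 8836 units in urothelium against 4526, 3972 and 2792 in detrusor (1.55 ± 0.51, adjusted p = 0.0808). The second sets of Mgst1 (1415898_at) and Mgst3 (1450563_at) stayed below their array's median on all 9 arrays, at 29.6 to 107 and 31.2 to 243 units. Their differences between urothelium and detrusor were -0.40 and 0.44, and they carry no test. Among all glutathione S-transferase probe sets, 1 is annotated to several genes, Gsta1, Gsta2 and Gm3776, and is given no gene here.

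**Figure D5:**
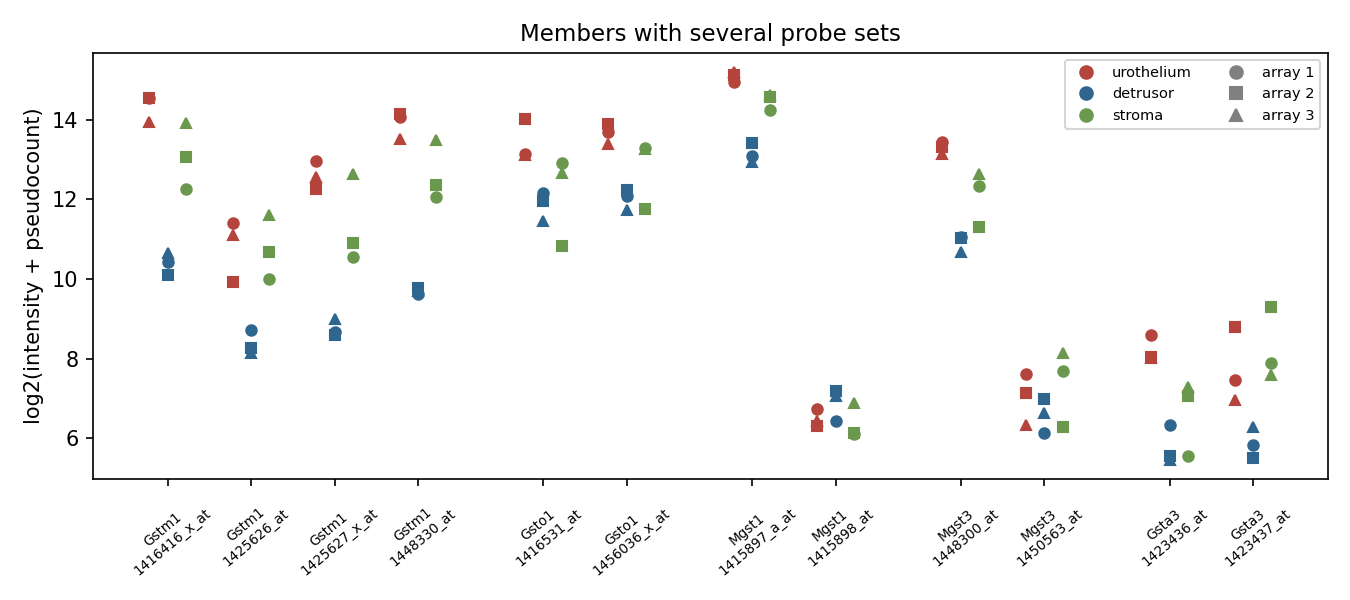
Log2(intensity + 39.34) levels of every probe set of the 5 genes with more than 1, 1 point per array, coloured by layer. The 4 Gstm1 sets all place urothelium above detrusor, while the second Mgst1 and Mgst3 sets are dim in all layers.

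Gsta3, an alpha class enzyme known in mouse liver for the detoxification of aflatoxin, was dim on most arrays. Its 2 probe sets each reached the array median on 2 of 9 arrays. The first, 1423436_at, had 346, 226 and 221 units in urothelium, 41.1, 8.13 and 4.87 in detrusor and 7.5, 94 and 117 in stroma. The second, 1423437_at, had 138, 402 and 86.4 units in urothelium, 18, 6.06 and 38.8 in detrusor and 199, 594 and 152 in stroma. On both sets every urothelium array was above every detrusor array, and the sets disagreed on urothelium against stroma, at log2 1.59 and -0.52. These differences have no test.

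Other genes of the family and pathway were described by 6 lists, with counts of called genes and medians beside those of all genes. Of 22 further glutathione S-transferases and relatives, 13 were tested. In urothelium against detrusor 3 were higher and 0 lower, Gsta2, Gstt3 and Ptges, with a list median of log2 0.78 against -0.01 for all genes, of which 8.37% were called higher and 8.05% lower. Gsta2, an alpha class enzyme, had 9306, 10057 and 3717 units in urothelium, 46.3, 17.9 and 122 in detrusor and 1630, 2774 and 3761 in stroma. It was below the median on all 3 detrusor arrays and passed the filter through the other layers, so its differences from detrusor, called for urothelium and for stroma, depend on the pseudocount and their sizes are not given. Ptges, a prostaglandin E synthase of the same membrane family as Mgst1, was higher by 2.57 ± 0.61 on its brightest probe set (adjusted p = 0.0155). Its other probe sets that passed the filter were not called, at 1.54 (adjusted p = 0.452 over all probe sets) and 1.2 (adjusted p = 0.171). In detrusor against stroma 1 was lower, Gsta2, against 2.72% of all genes. In urothelium against stroma 0 were called, against 0.23% of all genes. By limma, 4 of the 13 had an unadjusted p under 0.05 there, against 2481 of all 13064 genes tested.

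The lists of glutathione synthesis, use and export had list medians in urothelium against detrusor of -0.16, -0.10 and 0.63. Over all 6 lists, 73 genes were tested, and 20.5% were higher and 6.85% lower in urothelium than in detrusor, against 8.37% and 8.05% of all genes. The higher genes include Gsta2 and Cyp2s1, which passed the filter only through urothelium and stroma. These lists were chosen with earlier results of these data known. Of 13 synthesis and turnover genes, 1 was higher and 2 lower in urothelium than in detrusor, where 16.4% of all genes were called. Gclc, the catalytic subunit of the rate-limiting ligase of glutathione synthesis, was higher (2.32 ± 0.39, adjusted p = 0.003), and Oplah and Lap3 were lower. The list of glutathione use and reduction held 14 tested genes. Of these, 3 were higher, namely Pgd (1.37 ± 0.23), Gsr, the glutathione reductase (1.59 ± 0.36), and Idh1. In the same list 2 were lower, Gpx7 (-2.24 ± 0.40) and Glo1. Gpx7, a peroxidase of the endoplasmic reticulum, was also lower in urothelium than in stroma (-2.50 ± 0.40, adjusted p = 0.0437). Of 5 conjugate exporters, Abcc3 was higher in urothelium than in detrusor (5.31 ± 0.65, adjusted p = 0.000844) and lower in detrusor than in stroma (-2.68 ± 0.65, adjusted p = 0.0374).

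Of 14 Nrf2 and target genes, 3 were higher and 0 lower in urothelium than in detrusor, against 8.37% and 8.05% of all genes. They were Nfe2l2, which encodes Nrf2 (1.77 ± 0.34, adjusted p = 0.00569), Tkt (1.10 ± 0.23) and Txnrd1 (1.09 ± 0.33). The list median was 0.22, against -0.01 for all genes. Of 14 oxidising enzymes and aryl hydrocarbon receptor genes, 4 were higher, against 8.37% of all genes, namely Fmo5 (6.75 ± 1.00), Cyp2s1, Adh1 (2.68 ± 0.44) and Ahr, the receptor itself (2.08 ± 0.45), and Cyp1b1 was lower (-3.15 ± 0.90), with a list median of 0.43. Cyp2s1 had 2442, 2241 and 1269 units in urothelium against 163, 120 and 115 in detrusor. It was below the median on all 3 detrusor arrays, so no size is given. Fmo5 had 215, 223 and 481 units in detrusor, where the array medians were 213.4, 206.8 and 191.7. The size given for Fmo5 thus rests on a low detrusor signal. In detrusor against stroma, the 6 lists had 1 higher (Lap3) and 8 lower genes in all, 1.37% and 11% of the 73, against 3.12% and 2.72% of all genes. Among the 8 are Gsta2 and Cyp2s1, which passed the filter only through urothelium and stroma. Without stroma 3 and urothelium 3, a setting added for these lists after the data were seen, the lists had in that comparison 0 higher and 1 lower, Gsta2, against 2.31% and 0.964% of all genes. In urothelium against detrusor that setting gave 2 higher Nrf2 genes, 2 higher synthesis genes and 2 higher exporters, and the other counts of the 6 lists stayed as given. In urothelium against stroma the 6 lists had 0 higher genes and 1 lower, Gpx7, against 0.0612% and 0.168% of all genes. With that setting they had 5 higher and 1 lower, against 1.66% and 1.71% of all genes.

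Postnatal day moved none of the 9 genes past the threshold. With layer as a covariate, limma called 0 of 9 between day 2 and day 1, 0 had an unadjusted p under 0.05, and 0.0153% of all genes were called, with 727 genes at an unadjusted p under 0.05. The differences ran from log2 -0.51 ± 0.33 for Gsto1 to 0.57 ± 0.39 for Gsta4. Values within each day rest on layers with as few as 1 array. Since the 8 genes called between urothelium and detrusor had no overlap between arrays, their direction within a day was fixed, and only the sizes are of interest. Gsta4 differed by 5 on day 1 and 3.53 on day 2, Gstm1 by 4.27 and 3.61, Gstm4 by 4.30 and 2.76, Mgst1 by 1.87 and 2.12, Mgst3 by 2.28 and 2.63, and Gsto1 by 1.72 and 1.82. Gstt1 differed by -4.19 and -2.43 and Gstm5 by -2.34 and -1.24. For the genes called between detrusor and stroma, day 1 and day 2 gave -3.36 and -2.95 for Gsta4, -2.00 and -2.84 for Gstm1, and -0.98 and -1.64 for Mgst1. Gstm4 differed between urothelium and stroma by 3.38 and 2.38.

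The genes whose levels were most like each member's over the 9 arrays, among all genes tested, were ranked by Pearson's r. The 9 points fall into 3 layers, so r mostly reflects the layers and is given as a description. For Gsta4 they were Dsp (0.991), Epcam (0.987) and Tspan8 (0.985), and for Mgst1 Esrp1 (0.988), Slc35d1 (0.984) and Tmprss13 (0.983). For Gstm1 they were Fam102a, Cyp2s1 and Gsta2 (0.985 each), so another family member was among the closest. Gstm4 was closest to Slc22a15 (0.987), Mgst3 to Fgfr3 (0.991) and Gsto1 to Gltp (0.993). Gstt1 was closest to Itpk1 (0.99), Gstm5 to Arrb1 (0.991) and Gstm2 to Hpcal1 (0.973). Within the family, Gsta4 and Gstm1 had r of 0.97, Gsto1 and Mgst3 0.96, and Gstm4 and Gstm5 -0.96.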

How the data were processed

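Transcript levels were measured in urothelium, detrusor and stroma, 3 arrays each, and all 9 columns of the table were used. The authors deposited linear probe set intensity values. The submitters' processing notes name GCOS, an Affymetrix program, without a version or an algorithm. The mean after trimming 2% of probe sets at each end was 1500.01 on every array, and this scaling was kept. No detection calls were used.

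Symbols came from the platform annotation. Values were taken as log2(intensity + 39.34), the 20th percentile of all values, and such folds understate changes at low signal. The filter kept probe sets that reached the array median on 3 or more arrays, and each gene was represented by its brightest such probe set, leaving 13064 genes. The comparisons used limma (3.58.1, R 4.3.3) in 1 fit over all arrays (eBayes with a trend), with Benjamini-Hochberg adjustment over all genes and a threshold of 0.05. The number of arrays limits the precision. The fit was tested on simulated data.

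All members and their probe sets are named, with up to 4 called genes per list and comparison and up to 3 of the most alike genes per member. Idh1, Cyp1b1, and the family genes next to members or outside the called ones were named after their values were seen. Members and lists were chosen with earlier results of these data known. The alternatives were 2 scalings, 2 pseudocounts, 2 filters, 2 probe set rules, 2 variance models, separate fits, postnatal day as a block, each array left out, and stroma 3 with urothelium 3 left out.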

Additional observations from a re-analysis of the deposited data

How the results depend on the processing

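Over 22 alternatives, 558 of the differences of single genes kept their direction and their side of the threshold, 19 lost it, 16 gained it, and 1 reversed, Gstm2 in urothelium against detrusor when detrusor 2 was left out (-0.02, with a range of -0.02 to 0.65 over the arrays left out). No paired analysis was possible because replicate numbers were given in accession order and pair nothing. For urothelium against detrusor, 8 of the 9 genes were called under all alternatives except some that left out 1 array, where the range was 7 to 8. All genes called there numbered 3785 with array weights and 1172 (without detrusor 3) to 2435 with 1 array left out. For urothelium against stroma, the 1 called gene became 0 with the 5th percentile pseudocount, no filter, each probe set on its own, no variance trend, array weights, only the 2 layers compared or day as a block, and 2 without stroma 3 and urothelium 3, with 0 to 2 when 1 array was left out. All genes called in that comparison, 30 as reported (8 higher and 22 lower), were 93 with quantile normalization, 223 with median centring (192 higher and 31 lower), 13 and 304 with the 5th percentile and median pseudocounts, 10 with no filter, 139 with a stricter one, 118 with the mean of probe sets, 18 with each probe set on its own, 0 with no trend, 11 with array weights, 0 with only the 2 layers, 10 with day as a block and 440 without stroma 3 and urothelium 3, and 0 to 528 (without stroma 3) with 1 array left out. By limma, 2481 genes had an unadjusted p under 0.05 there as reported, 2473 with no trend and 2071 with only the 2 layers. For detrusor against stroma, the 3 called genes became 5 with a stricter filter and with array weights, and 2 to 5 with 1 array left out. All genes called there, 763 as reported (408 higher and 355 lower), were 736 with median centring (591 higher and 145 lower), 428 without stroma 3 and urothelium 3, and 105 (without detrusor 3) to 851 with 1 array left out. Day gave 0 members with each array left out. The causes were not tested. Signals mostly below the array median limit what can be said of Gsta3 and of the second Mgst1 and Mgst3 probe sets.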

Other observations

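Of 27 pairs of a gene and a layer comparison, 2 had an unadjusted p under 0.05 for a difference between days, both of them Gstt1. Its urothelium against stroma difference was log2 -3.08 on day 1 (1 array each) and -0.35 on day 2 (2 arrays each), a change of 2.73 (limma interaction across all genes, adjusted p = 0.547). Its urothelium against detrusor difference changed by 1.76 (limma, adjusted p = 0.912). Neither passed the adjusted threshold, and 0 of the 27 pairs did. On day 2 the urothelium arrays include urothelium 3, which held smooth muscle transcripts. The part of these transcripts in the changes was not tested.

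Gstp1, the pi class enzyme, had 8117, 10856 and 8906 intensity units in urothelium, 12764, 11939 and 12408 in detrusor and 17806, 9040 and 9035 in stroma, and was not called in any comparison. The 1 probe set annotated to Gsta1, Gsta2 and Gm3776 had 3261, 1954 and 542 units in urothelium, 109, 119 and 208 in detrusor and 381, 857 and 1353 in stroma. Gsto2, next to Gsto1 on chromosome 19 in GRCm38.p6, was below the filter, with 322, 215 and 9.78 units in urothelium, 89, 80.2 and 25.4 in detrusor and 3.87, 11.3 and 9.32 in stroma.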
